A study of Mus musculus with 37 samples.

Results

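Astrocytes clear glutamate from the extracellular space and return it to neurons as glutamine. Slc1a2 (GLT-1) and Slc1a3 (GLAST) take up glutamate with sodium, Glul (glutamine synthetase) joins it with ammonia to make glutamine, and Slc38a3 (SNAT3) and Slc38a5 (SNAT5) carry glutamine out of the cell. Glud1 (glutamate dehydrogenase) sends part of the glutamate into the citric acid cycle, and Slc1a4 (ASCT1) exchanges neutral amino acids such as serine and alanine. These 7 genes were taken by name through their Ensembl identifiers from the 21975 genes present in both tables of expression values, and all 7 were found and measured.

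Cortical astrocytes were collected with magnetic beads against the surface antigen ACSA-2, 4 months after a severe controlled cortical impact (CCI) to the right parietal cortex or after a sham operation. The mice were wild type, of a strain that the sample labels call CD31 and the methods of the study call CD1, and all were males. Sham mice had the craniectomy and the recording electrodes but no impact, and injured mice were divided by video EEG into those with post-traumatic epilepsy (PTE+) and those without it (PTE-). The cortex of the injured side gave 5 sham, 10 PTE- and 4 PTE+ libraries (ipsilateral, 19 in all), and the opposite cortex gave 5, 9 and 4 (contralateral, 18 in all). The 37 libraries came from 20 mice, of which 17 (5 sham, 9 PTE- and 3 PTE+) had a library from each hemisphere. Expression is given as TPM, a share of all transcripts that is scaled for transcript length and sums to 1000000 in every library, so the number of reads behind a value is unknown.

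The libraries had the profile of astrocytes. A list of 11 astrocyte markers, which holds none of the 7 genes, summed to between 17230 and 23459 TPM, against 34.9 to 508 TPM for 7 neuronal markers and 519 to 4451 TPM for 8 oligodendrocyte markers. Endothelial markers (8 genes) summed to 284 to 2202 TPM. One library, the ipsilateral library of PTE- mouse 9_14, stood apart, with 10727 genes above 0 against at least 15599 in every other library and a median correlation with the other ipsilateral libraries of 0.740 against at least 0.904. In RNA from pooled cells, fewer cells of a type and less RNA per cell cannot be told apart.

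All 7 genes are protein-coding, with these positions in the GENCODE vM21 annotation of GRCm38. Slc1a2 (ENSMUSG00000005089) is at chr2:102658659-102790784 on the forward strand, and Slc1a3 (ENSMUSG00000005360) at chr15:8634124-8710764 and Slc1a4 (ENSMUSG00000020142) at chr11:20302180-20332713 on the reverse strand. Glul (ENSMUSG00000026473) is at chr1:153899944-153909723 and Glud1 (ENSMUSG00000021794) at chr14:34310727-34345265, both on the forward strand. Slc38a3 (ENSMUSG00000010064) is at chr9:107650634-107669530 on the reverse strand, and Slc38a5 (ENSMUSG00000031170) at chrX:8271133-8280179 on the forward strand.

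Promoter sequence was at hand for 6 of the 7 genes, all but Slc38a3. Those printed here are the 3 Slc1 genes, whose levels moved together from library to library, and Glul, whose level followed them least among the 6 most abundant genes. Each is the 250 bases before the RefSeq start site on GRCm38.p6, written 5′ to 3′ along the gene's own strand. Capitals mark 5 motifs on either strand, namely the TATA box (TATAAA), the motif bound by the factor NF-Y (CCAAT), that bound by Sp1 (GGGCGG), a glucocorticoid receptor site (AGAACA) and the palindrome bound by STAT factors (TTCNNNGAA). The windows are chr2:102706188-102706437 (forward strand), chr15:8710808-8711057 (reverse), chr11:20332714-20332963 (reverse) and chr1:153899679-153899928 (forward). The RefSeq start used for Slc1a2 lies inside the GENCODE gene. The bases just after the start used for Slc1a3 were found in no GENCODE transcript of that gene.
Slc1a2: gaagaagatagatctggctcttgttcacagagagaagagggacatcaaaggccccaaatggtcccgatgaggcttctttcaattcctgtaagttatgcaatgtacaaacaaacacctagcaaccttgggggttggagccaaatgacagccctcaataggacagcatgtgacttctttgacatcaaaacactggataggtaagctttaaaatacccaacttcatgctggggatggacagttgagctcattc
Slc1a3: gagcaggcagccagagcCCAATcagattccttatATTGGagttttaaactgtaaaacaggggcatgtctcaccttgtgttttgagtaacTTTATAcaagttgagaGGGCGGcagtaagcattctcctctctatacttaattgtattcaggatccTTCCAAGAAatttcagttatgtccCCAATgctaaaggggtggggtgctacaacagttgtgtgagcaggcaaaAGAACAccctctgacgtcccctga
Slc1a4: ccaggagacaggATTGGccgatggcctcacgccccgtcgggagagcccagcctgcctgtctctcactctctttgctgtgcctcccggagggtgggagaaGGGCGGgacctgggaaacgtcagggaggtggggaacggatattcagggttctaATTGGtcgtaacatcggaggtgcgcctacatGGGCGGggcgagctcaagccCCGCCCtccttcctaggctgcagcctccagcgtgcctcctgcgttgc
Glul: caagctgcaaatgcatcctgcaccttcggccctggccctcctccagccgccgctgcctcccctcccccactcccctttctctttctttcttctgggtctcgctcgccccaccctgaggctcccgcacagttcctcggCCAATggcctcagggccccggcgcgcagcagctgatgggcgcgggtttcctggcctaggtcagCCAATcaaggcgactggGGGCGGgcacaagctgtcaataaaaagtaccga
None of the 5 motifs was found in the Slc1a2 window, in which 44.8% of the bases were G or C. The Slc1a3 window, with the same 44.8%, held all 5, with CCAAT at 3 places. Its TATAAA match was on the opposite strand, at positions -161 to -156 from the start. Slc1a4 and Glul, at 64.8% each, held CCAAT at 2 places each and GGGCGG at 3 and 1. Over the same 250 bases of 32851 RefSeq promoters, the share with a match was 12.4% for TATAAA, 33.85% for CCAAT, 32.7% for GGGCGG, 16.1% for AGAACA and 7.02% for TTCNNNGAA, and the median share of G and C was 52.4%. These matches describe the letters of the windows only.

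Of the 7 genes Glul was the highest, at 2354 TPM ± 326 (mean ± SD over 37 libraries), rank 39 of 21975 genes, followed by Slc1a3 at 2141 ± 436, rank 43. Glul exceeded Slc1a3 in 25 of 37 libraries, and their ranges (1869 to 3301 and 1420.2 to 3308 TPM) overlapped. Slc38a3 (857 ± 183), Slc1a2 (502 ± 105), Glud1 (249.6 ± 29.9) and Slc1a4 (188 ± 50.0) came next. Slc1a3 exceeded Slc38a3, Slc38a3 exceeded Slc1a2 and Slc1a2 exceeded Glud1 in all 37 libraries, while Glud1 exceeded Slc1a4 in 34. The lowest was Slc38a5, at 23.2 ± 16.3 TPM, rank 5578. Within groups its log2 values had an SD of 0.78, against 0.16 to 0.42 for the other 6, and its highest library was 13.2 times its lowest.

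**Figure D1:**
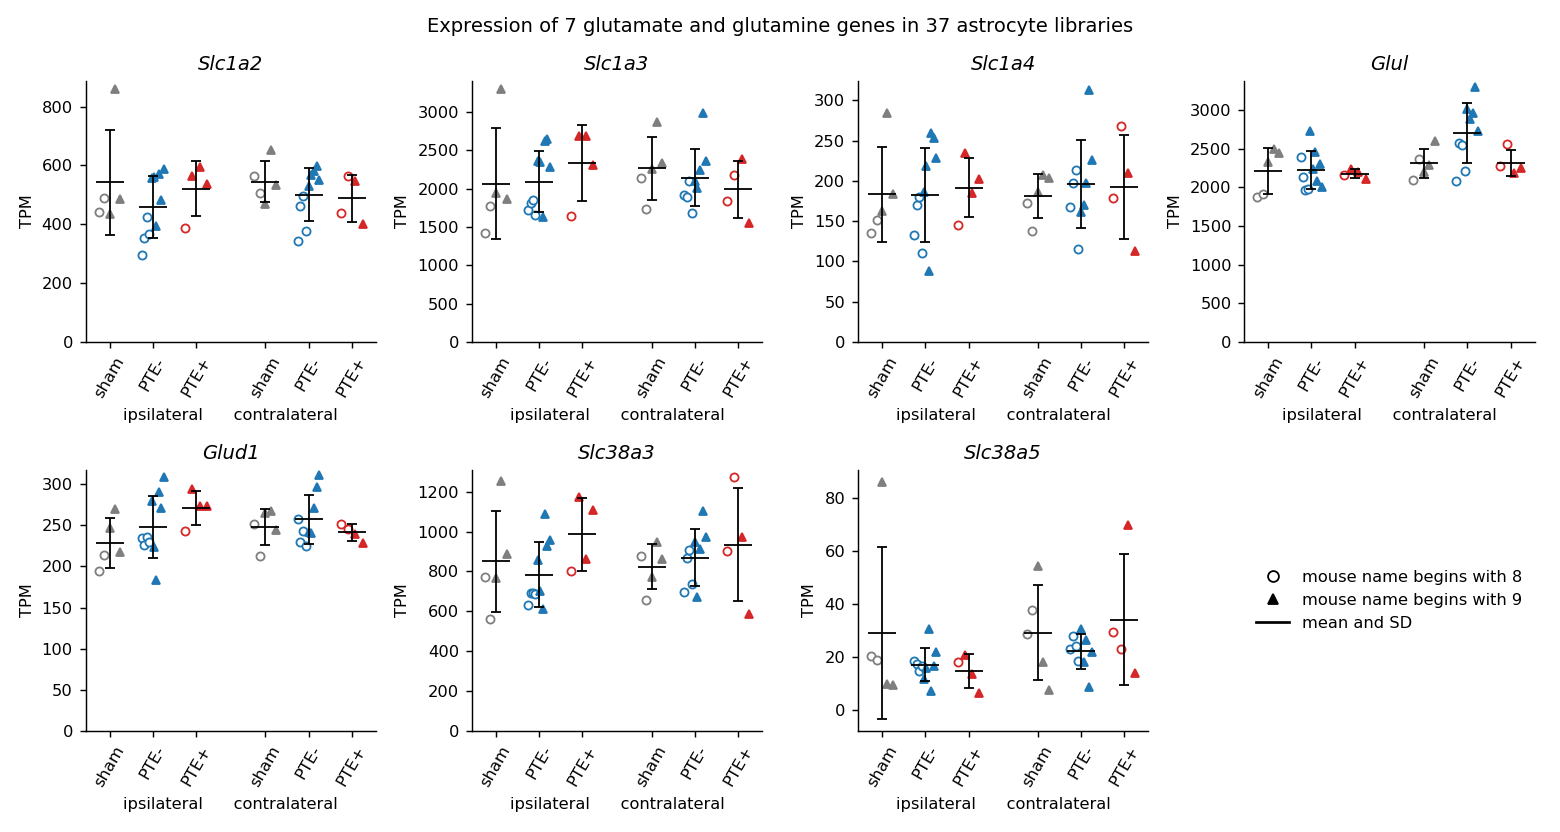
TPM of each gene (vertical axis, linear) in each of the 37 libraries, by hemisphere and group; horizontal bars and whiskers are means and SD, open circles are mice whose names begin with 8 and filled triangles those whose names begin with 9. The groups of all 7 genes overlap in both hemispheres, the highest Slc1a2 and Slc1a3 values are those of 1 ipsilateral sham mouse, and Slc38a5 holds single libraries far above the rest.

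Whether injury or epilepsy changed these genes was tested with limma on log2(TPM + 1), over all genes whose mean passed 5 TPM in any group compared. Following the study, a differentially expressed gene (DEG) had to differ at least 1.2-fold with an unadjusted p below 0.05, and p-values adjusted by Benjamini-Hochberg over all genes tested are given beside them. Over 12 comparisons the 7 genes gave 84 tests. Only 2 of these were DEGs and 3 had an unadjusted p under 0.05, and the lowest adjusted p from limma was 0.961. Exact permutation tests within a hemisphere and sign-flip tests within mice were two-sided.

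In the ipsilateral cortex, CCI against sham called 0 of the 7 genes, against 169 of 10434 genes tested (1.62%). Their log2 fold changes ran from -0.38 to 0.16, with a median of 0.01 beside a median of -0.01 over all genes tested. PTE- against sham called 0 of 7 (all genes: 1.54%) and PTE+ against sham 0 of 7 (all genes: 1.56%). PTE+ against PTE- called 1, Slc38a3 (all genes: 0.573%). In the contralateral cortex 0 of 7 were called after CCI (all genes: 4.05%), in PTE- (3.76%) and in PTE+ mice (1.97%) against sham, and in PTE+ against PTE- mice (2.79%). The comparisons against sham share their 5 sham libraries in each hemisphere.

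**Figure D2:**
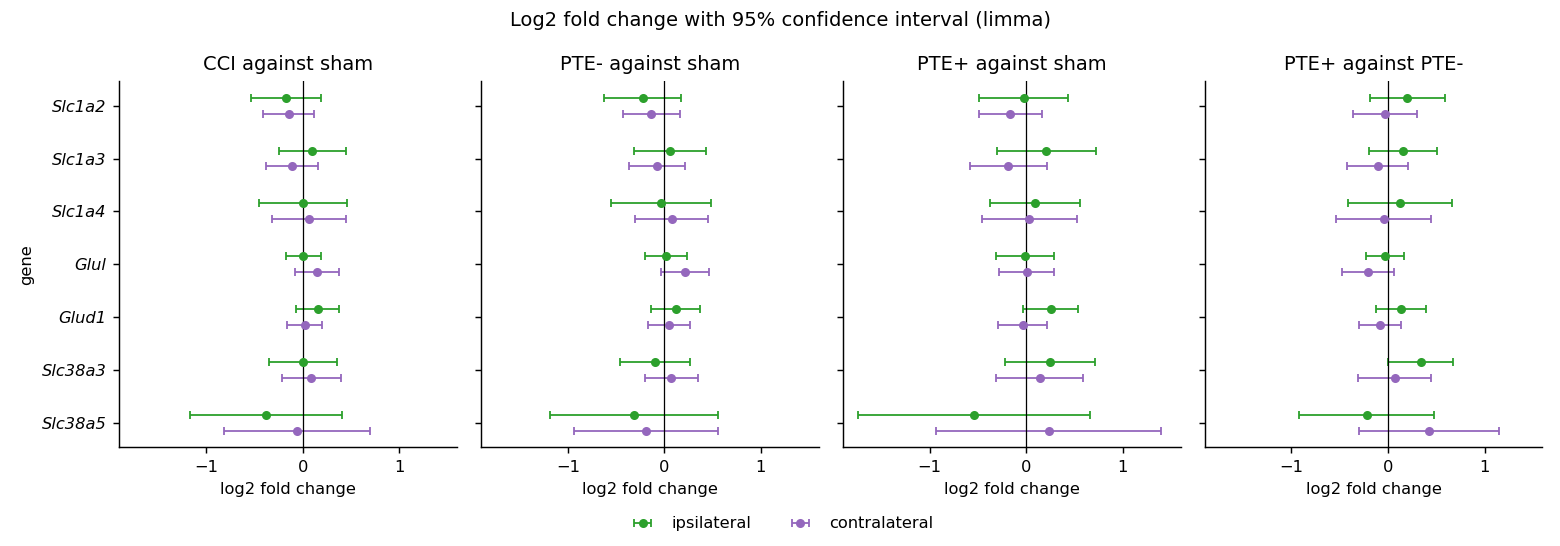
Log2 fold change of each gene with its 95% confidence interval from limma, for 4 comparisons in the ipsilateral (green) and contralateral (purple) cortex; the vertical line marks no change. Every interval spans 0 except that of Slc38a3 in ipsilateral PTE+ against PTE-, whose lower bound is 0.0025, and the intervals of Slc38a5 are the widest.

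The glutamate transporter genes showed no difference between groups beyond the spread of the mice. In the ipsilateral cortex Slc1a2 measured 442, 490.1, 434, 859 and 487 TPM in the 5 sham mice, and 386, 565, 596 and 535 TPM in the 4 PTE+ mice. The 10 PTE- libraries ran from 294 to 587 TPM with a median of 454. One sham mouse, 9_11, lay above every injured mouse, and the other 4 lay within the range of the injured mice. The log2 fold change for CCI was -0.17 (SE 0.17, exact permutation p = 0.367), with a 95% interval in fold from 0.692 to 1.14. Without sham mouse 9_11 it was 0.01.

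Slc1a3 measured 1420.2, 1778, 1949.8, 3308 and 1869 TPM in the same sham mice. The PTE+ mice had 1642, 2694, 2689 and 2312 TPM, and the PTE- mice 1633 to 2653 with a median of 2067. Mouse 9_11 was again the highest of all. The log2 fold change was 0.10 for CCI (SE 0.17, exact permutation p = 0.564) and 0.21 for PTE+ against sham (SE 0.24, exact permutation p = 0.444). Without sham mouse 9_11 the latter was 0.39 and a DEG (unadjusted p = 0.0441 in limma), and without sham mouse 8_15 the former was -0.02. The fit of PTE+ against sham without 9_11 called 1038 of 10434 genes tested, against 163 of 10447 with every library.

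On the contralateral side the Slc1a2 means were 545 TPM in sham, 501 in PTE- and 488 in PTE+ mice, and the log2 fold change for CCI was -0.14 (SE 0.13, exact permutation p = 0.279). Contralateral Slc1a3 averaged 2266, 2145 and 1993 TPM in the same groups. Its log2 fold change was -0.11 for CCI (SE 0.13, exact permutation p = 0.404) and -0.11 for PTE+ against PTE- (SE 0.15, exact permutation p = 0.490), and the latter was 0.0050 without PTE+ mouse 9_18.

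The ratio of Slc1a3 to Slc1a2 within a library averaged 4.31 ± 0.579 over the 37 libraries. It was 3.805 ± 0.462 in ipsilateral sham, 4.64 ± 0.642 in PTE- and 4.46 ± 0.234 in PTE+ mice, with overlapping ranges of 3.22 to 4.49, 3.89 to 5.85 and 4.25 to 4.77. Contralaterally it was 4.16 ± 0.550, 4.33 ± 0.625 and 4.08 ± 0.245. These ratios are given without a test.

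The neutral amino acid exchanger Slc1a4 varied more within groups than between them. Its ipsilateral means were 183 ± 59.0 TPM in sham (n = 5), 183 ± 58.6 in PTE- (n = 10) and 192 ± 36.9 in PTE+ mice (n = 4). The lowest library, at 88.5 TPM, was the ipsilateral one of PTE- mouse 9_14. The contralateral means were 181 ± 27.8, 196 ± 54.8 and 192 ± 64.4 TPM. The largest log2 fold change within a hemisphere was 0.12, in ipsilateral PTE+ against PTE- mice, and the exact permutation p-values lay between 0.671 and 0.982.

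Glul, which makes glutamine, was level across the ipsilateral groups. The sham mice had 1869, 1911, 2327, 2488 and 2444 TPM, the PTE+ mice 2154, 2236, 2199.6 and 2101 TPM, and the PTE- mice 1959 to 2727 with a median of 2187. The 4 PTE+ libraries had an SD of 58.5 TPM and lay inside the range of both other groups. CCI against sham gave a log2 fold change of 0.01 (SE 0.09, exact permutation p = 0.922), with a 95% interval in fold from 0.886 to 1.14.

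In the contralateral cortex the PTE- mice had the highest Glul. Their 9 libraries ran from 2079.5 to 3301 TPM with a median of 2722, against 2096, 2362, 2197, 2289 and 2594 TPM in sham and 2279, 2561, 2181 and 2247 TPM in PTE+ mice. Of the 9, 5 exceeded every sham mouse and 1 lay below every sham mouse. The log2 fold change of PTE- against sham was 0.22 (SE 0.12, exact permutation p = 0.0669), and that of PTE+ against PTE- was -0.21 (SE 0.13, exact permutation p = 0.105). Neither was a DEG, although the former became one when each library was centred on its median (0.33, unadjusted p = 0.0140 in limma). The 5 PTE- mice above every sham mouse all had names that begin with 9, a split taken up below, and within that split the means were 2974 TPM in 5 PTE- mice, 2360 in 3 sham and 2214 in 2 PTE+ mice. Among mice whose names begin with 8 they were 2354 TPM in 4 PTE-, 2229 in 2 sham and 2420 in 2 PTE+ mice.

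Glud1 had the smallest SD of all 7 genes on the log2 scale over all libraries, 0.17. In the ipsilateral cortex it measured 194, 214, 247, 270.3 and 217 TPM in sham and 243, 294, 273 and 274 TPM in PTE+ mice. All 4 PTE+ mice exceeded the sham median of 217 TPM and 3 of them every sham mouse. PTE+ against sham gave 0.25 (SE 0.13), a fold of 1.19 with an exact permutation p of 0.0635, where 4 against 5 libraries allow no p below 0.00794. PTE- mice ran from 184 to 309 TPM with a median of 235. Without sham mouse 9_11 the log2 fold change of PTE+ against sham was 0.32 and Glud1 was a DEG (unadjusted p = 0.0251 in limma). In that fit 1038 of 10434 genes tested were DEGs, against 163 of 10447 with every library. Contralaterally the means were 248, 257 and 241 TPM in sham, PTE- and PTE+ mice, and the largest log2 fold change was -0.08, in PTE+ against PTE- mice.

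The glutamine transporter Slc38a3 was the 1 gene of the 7 that was a DEG when mice with and without epilepsy were compared, and this was on the injured side. There it measured 802, 1174, 860.3 and 1108 TPM in the 4 PTE+ mice, and 609.5 to 1087 TPM in the 10 PTE- mice with a median of 696. All 4 PTE+ mice exceeded the PTE- median and 2 exceeded every PTE- mouse, so the groups overlapped. The log2 fold change was 0.34 (SE 0.16, unadjusted p = 0.0485 and adjusted p = 0.977 in limma, exact permutation p = 0.0639), a fold of 1.26 with a 95% interval from 1.002 to 1.595. The median over all genes was 0.12 in this comparison. All 7 neuronal markers and 5 of 6 oligodendrocyte markers tested were above 0, with medians of 0.59 and 0.65 and 0 called. Also above 0 were 9 of 11 astrocyte and 4 of 5 oligodendrocyte precursor markers (medians 0.13 and 0.22). The same held for 5 of 6 mural and fibroblast and 7 of 7 endothelial markers (0.31 and 0.22). Of 7 microglial markers 1 was above 0 (median -0.20), and in these 5 lists 0 were called. Over all 37 libraries, with values centred on group means, Slc38a3 had Spearman correlations of -0.59 and -0.41 with the neuronal and oligodendrocyte marker sums. They were 0.46 with astrocyte, 0.48 with oligodendrocyte precursor, 0.31 with mural and fibroblast, -0.20 with microglial and -0.27 with endothelial markers. The part of these cells in the Slc38a3 difference was not tested.

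The call was close to its threshold, and the unadjusted p stayed under 0.05 in 3 of 12 alternatives. It was lost without PTE+ mouse 9_17 (0.25), without PTE+ mouse 9_19 (0.28) and without PTE- mouse 9_14 (0.30), which had the lowest Slc38a3 of the PTE- mice. Among mice whose names begin with 9, 3 PTE+ mice averaged 1047.5 TPM and 6 PTE- mice 856, a log2 difference of 0.30. In the other mice the 1 PTE+ library had 802 TPM and 4 PTE- libraries averaged 675. Sham mice had 773, 564, 769, 1256 and 888 TPM, and PTE+ against sham gave 0.24 (SE 0.21, exact permutation p = 0.357). Without sham mouse 9_11 this was 0.40 and a DEG (unadjusted p = 0.0391 in limma), in a fit that called 1038 of 10434 genes tested. With every library 163 of 10447 were called.

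On the contralateral side Slc38a3 did not separate PTE+ from PTE- mice. The PTE+ mice were not all the same on the 2 sides, since 9_19 had only an ipsilateral and 8_17 only a contralateral library. The PTE+ mice had 902, 1275, 974 and 586 TPM, which include the lowest and the highest contralateral libraries, and the PTE- mice had 673 to 1105 with a median of 907. PTE+ against PTE- gave 0.07 there (SE 0.18, exact permutation p = 0.722). The difference between hemispheres of the PTE+ effect was 0.27 (SE 0.24, p = 0.279 in limma). With the mouse as a block, which uses the paired libraries, it was 0.34 (unadjusted p = 0.0468 in limma) and Slc38a3 was a DEG. The exact permutation test over 3 PTE+ and 9 PTE- mice with both hemispheres gave p = 0.0682 for the same difference. Within these 3 PTE+ mice the ipsilateral minus contralateral log2 difference was -0.17 (8_10), 0.27 (9_17) and 0.55 (9_18). Their mean was 0.22 (SD 0.36), and that of the 9 PTE- mice -0.12 (SD 0.20, 7 lower).

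Slc38a5, the other glutamine transporter, varied most. The 5 ipsilateral sham mice had 20.6, 19.04, 86.2, 10.1 and 9.68 TPM, and the 4 PTE+ mice 18.3, 21.1, 13.7 and 6.55 TPM. PTE- mice ran from 7.14 to 30.9 TPM with a median of 16.6. A single sham mouse, 9_10, lay far above the other 4. CCI against sham gave -0.38 (SE 0.38, exact permutation p = 0.361), and 0.13 without sham mouse 9_10, so its direction rested on that mouse. Contralaterally PTE+ mouse 9_17 had 69.8 TPM and the other 3 PTE+ mice 29.6, 23.2 and 14.04 TPM. PTE+ against PTE- gave 0.43 there (SE 0.34, exact permutation p = 0.323), a value that rested on single libraries. It was 0.0089 without PTE+ mouse 9_17, and 0.75 with a DEG call without PTE+ mouse 9_18 (unadjusted p = 0.0405 in limma). In the same comparison all 7 endothelial markers tested were above 0, with a median of 0.73 and 2 called, as were all 7 neuronal markers, with a median of 0.64 and 1 called, and their part in it was not tested.

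Over all 37 libraries Slc38a5 moved with the endothelial markers. With both centred on their group means, its Spearman correlation with the sum of the 8 endothelial markers was 0.80, against 0.37 with the microglial markers and -0.19 to 0.05 with the other 5 lists. The points share libraries, mice and the fixed total of TPM, so the value is a description. The 3 libraries with the highest Slc38a5, at 86.2, 69.8 and 54.3 TPM, had endothelial sums of 1477, 2202 and 1375 TPM.

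**Figure D3:**
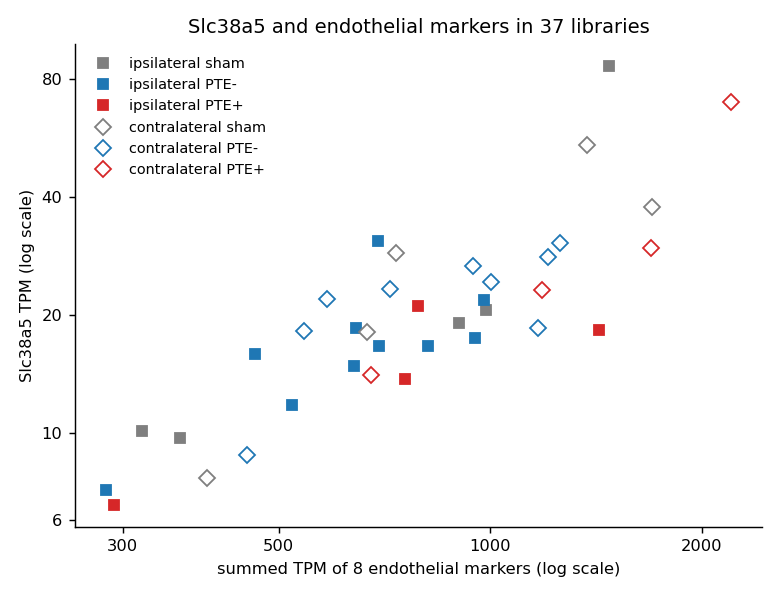
Slc38a5 TPM (vertical axis, log scale) against the summed TPM of 8 endothelial markers (horizontal axis, log scale) in the 37 libraries, colored by group, with filled squares for the ipsilateral and open diamonds for the contralateral cortex. Slc38a5 is higher where the endothelial sum is higher, and the 3 libraries with the most Slc38a5 (54.3 to 86.2 TPM) have sums of 1375 to 2202 TPM.

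Since each of 17 mice gave both hemispheres, the injured side was also compared with the opposite side of the same mouse. In injured mice Glul was lower on the ipsilateral side in 10 of 12, with means of 2201 TPM against 2582 TPM. The mean within-mouse log2 difference was -0.22 (SD 0.23, exact sign-flip p = 0.00977, where 12 mice allow no p below 0.000488), a fold of 0.858. It was one of 7 genes tested this way. In the same 12 mice the astrocyte marker sums had medians of 20694 TPM ipsilaterally and 19428 contralaterally, and the oligodendrocyte sums 1349 and 2159 TPM, and their part in it was not tested. In PTE- mice the difference was -0.29 (8 of 9 mice lower, SD 0.23, exact sign-flip p = 0.0156), and in the 3 PTE+ mice it was -0.03 (2 of 3 lower, SD 0.06), where the smallest p that 3 mice allow is 0.25.

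The size of the difference did not separate from that in sham mice. The 5 sham mice gave -0.07 (SD 0.18, 3 of 5 lower, exact sign-flip p = 0.438). The difference between injured and sham mice in this value was -0.15 (exact permutation p = 0.209), and that between PTE+ and PTE- mice was 0.26 (exact permutation p = 0.0909). In limma, on unpaired libraries, Glul had a log2 difference of -0.21 in injured mice (SE 0.07, unadjusted p = 0.00452, adjusted p = 0.961), a fold under the threshold of 1.2, so it was not a DEG. The value held between -0.23 and -0.19 with an unadjusted p of at most 0.0131 in all 12 alternatives.

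Slc38a5 was the only DEG of the 7 genes between hemispheres of injured mice, where 2.54% of all genes were DEGs. The log2 difference was -0.56 (SE 0.23, unadjusted p = 0.0185, adjusted p = 0.970 in limma). Within mice it was lower on the ipsilateral side in 11 of 12, with means of 16.2 against 26.1 TPM and a mean log2 difference of -0.55 (SD 0.75, exact sign-flip p = 0.0288). Leaving out single mice moved this p to between 0.000977 (without PTE- mouse 9_16) and 0.0576, and it passed 0.05 without PTE- mouse 8_14, 9_12 or 9_15 or PTE+ mouse 9_17. The summed endothelial markers were lower on the ipsilateral side in 9 of the same 12 mice, with medians of 725 and 974 TPM. In the limma comparison all 7 endothelial markers tested were below 0 in injured mice, with a median of -0.475 and 4 called. All 7 were below 0 in sham mice as well, with a median of -0.39 and 0 called. Their part in the Slc38a5 difference was not tested. In sham mice Slc38a5 differed by -0.24 (SD 0.70, exact sign-flip p = 0.500), and the difference between injured and sham mice was -0.30 (exact permutation p = 0.453).

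**Figure D4:**
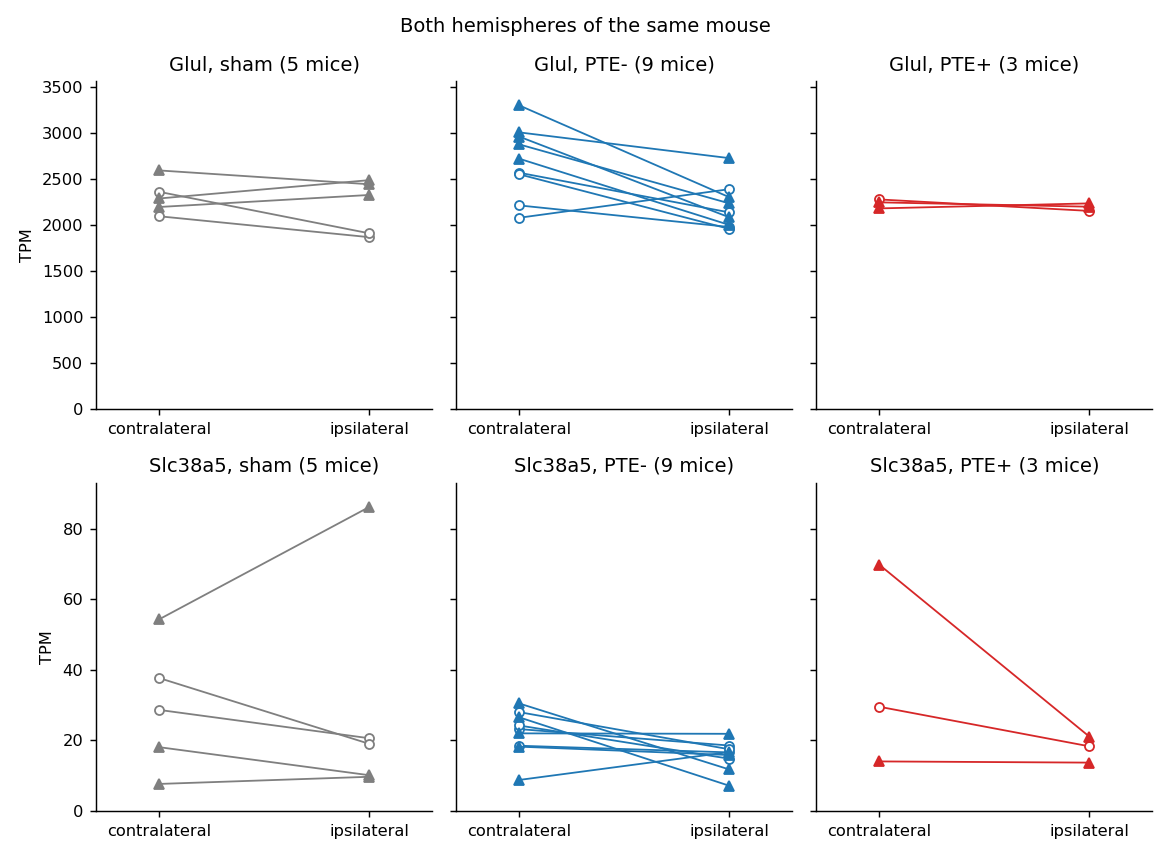
TPM of Glul (top) and Slc38a5 (bottom) in both hemispheres of the same mouse, joined by a line, for 5 sham, 9 PTE- and 3 PTE+ mice; open circles are mice whose names begin with 8 and filled triangles those whose names begin with 9. Glul is lower ipsilaterally in 8 of 9 PTE- mice, and Slc38a5 in 8 of 9 PTE- and 3 of 3 PTE+ mice.

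Over all injured mice the other 5 genes did not differ between hemispheres beyond the spread of the mice. Their within-mouse log2 differences in 12 injured mice were -0.05 for Slc1a2, 0.06 for Slc1a3, 0.03 for Slc1a4, 0.03 for Glud1 and -0.04 for Slc38a3, with exact sign-flip p-values between 0.454 and 0.747. Without PTE+ mouse 9_18 the Slc1a2 difference was -0.11 (exact sign-flip p = 0.0488). The injured mice did not all go one way along the split of names taken up below. In the 5 whose names begin with 8, Slc1a2 (-0.21), Slc1a3 (-0.12), Slc1a4 (-0.23) and Slc38a3 (-0.23) were lower ipsilaterally in all 5. Each had an exact sign-flip p of 0.0625, the smallest that 5 mice allow. In the 7 whose names begin with 9 these genes gave 0.06, 0.19, 0.22 and 0.10 (exact sign-flip p between 0.109 and 0.578). Glud1 gave -0.04 and 0.09. In sham mice 0 of 7 genes were DEGs between hemispheres (all genes: 1.19%). The difference between hemispheres of the CCI effect called 0 of 7 (all genes: 1.37%), and that of the PTE+ effect 0 of 7 (all genes: 0.0843%). These fits leave out that the hemispheres come from the same mice. With the mouse as a block the shares of all genes were 6.91%, 6.50% and 3.09%, and 0, 0 and 1 of the 7 genes were DEGs. Between hemispheres of injured mice the blocked share was 4.51%, with 1 of 7.

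A larger separation ran along the names of the mice. Each name begins with 8 or 9, and the sources used here do not say what this number stands for. Both numbers occur in every group, with 1 and 3 mice among ipsilateral PTE+, 4 and 6 among PTE- and 2 and 3 among sham libraries. The contralateral libraries had 2 and 2 among PTE+, 4 and 5 among PTE- and 2 and 3 among sham. With the groups held fixed, 24.3% of all genes tested were DEGs between the names beginning with 9 and those beginning with 8 in the ipsilateral cortex, and 19.2% in the contralateral cortex. At an adjusted p under 0.05 there were 787 and 0 genes, and these counts rested on single libraries. Ipsilaterally there were 143 without mouse 8_10, 158 without mouse 8_16 and 3114 without PTE- mouse 9_14, and contralaterally 749 without mouse 9_18. The DEGs were 2017 higher and 530 lower ipsilaterally and 1828 and 199 contralaterally, and with median centring 693 and 1333, and 623 and 1199. This comparison was chosen after the data had been seen.

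In the ipsilateral cortex 4 of the 7 genes were DEGs along this split, all of them higher in the mice whose names begin with 9. Slc1a3 measured 1420.2 to 1848 TPM (median 1722) in 7 libraries and 1633 to 3308 (median 2355) in 12. The lowest of the 12 was PTE- mouse 9_14, and the ranges overlapped. It differed by 0.47 on the log2 scale (SE 0.11, adjusted p = 0.0249 in limma). Slc1a2 gave 0.47 (SE 0.12, adjusted p = 0.0291 in limma), with medians of 386 and 558 TPM. Slc1a4 gave 0.46 (adjusted p = 0.115) and Slc38a3 0.38 (adjusted p = 0.0554) in limma. Glud1 (0.19, unadjusted p = 0.0483) and Glul (0.17, unadjusted p = 0.0322) were below the fold threshold in limma, and Slc38a5 gave -0.12.

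Genes at large were higher in the same mice. The median over all genes tested was 0.11 ipsilaterally, and with each library centred on its median Slc1a2 and Slc1a3 remained DEGs while Slc1a4 (0.27, p = 0.107 in limma) and Slc38a3 (0.20, p = 0.0590 in limma) did not, and the Glul difference was -0.02. The number of genes above 0 had medians of 16413 and 16450 in the libraries of the names with 8 and 9, and the astrocyte marker sums medians of 20093 and 21445 TPM. Of 11 astrocyte markers 5 were DEGs, all higher in the mice whose names begin with 9. Neuronal sums had medians of 292 and 154 TPM, with 5 of 7 markers tested being lower DEGs, and oligodendrocyte sums medians of 1934 and 1187 TPM, with 4 of 7. Endothelial sums had medians of 902.5 and 607 TPM, with 2 of 7 lower, while 2 of 5 markers of oligodendrocyte precursors were higher. The part of these cells in the differences of Slc1a2, Slc1a3, Slc1a4 and Slc38a3 was not tested. In the contralateral cortex the same split gave 0.23 for Slc1a3 (SE 0.11, unadjusted p = 0.0474) and 0.21 for Slc1a2 (SE 0.11, unadjusted p = 0.0679) in limma, and 0 of 7 genes were DEGs. With the split as a covariate, the 4 ipsilateral and 4 contralateral comparisons between groups called the same numbers of the 7 genes as without it.

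**Figure D5:**
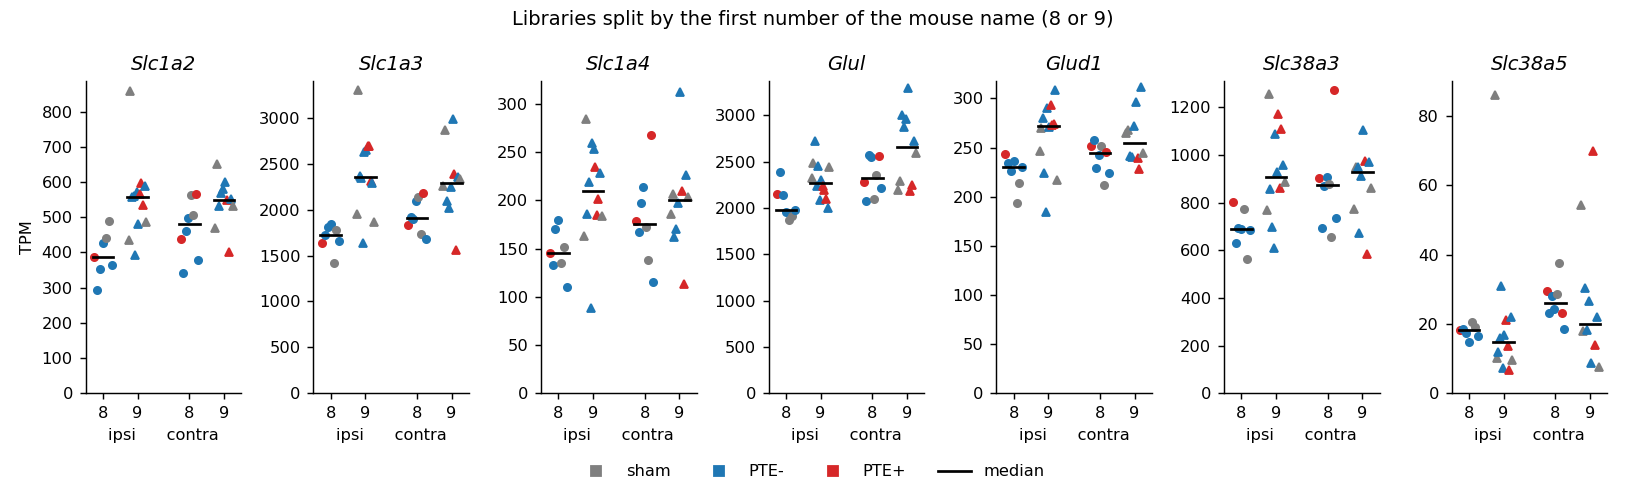
TPM of each gene (vertical axis, linear) in libraries of mice whose names begin with 8 (circles) or 9 (triangles), for the ipsilateral and contralateral cortex, colored by group; black lines are medians. Ipsilateral medians of every gene but Slc38a5 are higher in the mice whose names begin with 9, and all 3 groups occur on both sides.

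Slc1a2, Slc1a3, Slc1a4, Glud1 and Slc38a3 varied together among the mice of a group. Over the 37 libraries, each value centred on its group mean, the Spearman correlation was 0.88 between Slc1a3 and Slc1a4, 0.83 between Slc1a2 and Slc1a3, 0.84 between Slc1a4 and Slc38a3 and 0.79 between Slc1a3 and Glud1, and the lowest of these 5 genes was 0.58, between Slc1a2 and Glud1. Glul correlated with these 5 at 0.25 to 0.37, and Slc38a5 with the other 6 at -0.28 to -0.16. The libraries share mice, the split by name and the fixed total of TPM.

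Among 10235 genes with a mean above 5 TPM, the 3 most like each of the 7 in this measure were as follows. Sall3 (0.89), Tenm3 (0.87) and AI464131 (0.86) were most like Slc1a2, and Elovl2 (0.92), Abcd3 (0.91) and Grm3 (0.91), the last a metabotropic glutamate receptor, most like Slc1a3. For Slc1a4 they were Slc20a1 (0.91), Mau2 (0.90) and Phka1 (0.89). For Slc38a3 they were Lpcat3 (0.90), Slc26a6 (0.90) and Cdc42ep1 (0.89). Glud1 was most like Cs (0.85), which encodes citrate synthase, Gna13 (0.83) and Klhl24 (0.82). Slc38a5 was most like Gimap1 (0.88), Def6 (0.88) and Stap2 (0.87). The nearest to Glul were lower, Tob2 (0.66), Peli2 (0.65) and Chst2 (0.62).

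Further genes of glutamate and glutamine handling were counted from 3 lists of 34 genes, namely 12 glutamate transporters, 10 glutamine or neutral amino acid transporters and 12 enzymes. Of these 27 passed the filter in each comparison, 8, 8 and 11 by list. In the ipsilateral cortex none of the 27 was a DEG for CCI against sham, PTE- against sham or PTE+ against PTE-, and 2 of 27 (7.41%) were higher in PTE+ than in sham mice, where 1.56% of all genes were DEGs. Slc38a1, which carries glutamine into neurons, measured 31.4 ± 15.2 TPM in 4 PTE+ and 15.01 ± 5.70 in 5 sham mice (log2 fold change 0.96, unadjusted p = 0.0126 in limma). Oat, ornithine aminotransferase, measured 471 ± 46.3 and 386 ± 44.9 TPM (0.29, unadjusted p = 0.0488 in limma). The Slc38a1 call was lost without PTE+ mouse 9_19, and that of Oat in 7 of 9 fits without 1 mouse.

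In the contralateral cortex most DEGs among all genes were lower after CCI, 371 of 428, and this balance turned with median centring, to 255 higher and 155 lower. Of the lists 4 of 27 (14.8%, all genes 4.05%) were DEGs and lower, the amino acid exchanger Slc1a5 (7.77 ± 3.92 against 11.97 ± 1.79 TPM, -0.66), the mitochondrial aspartate-glutamate carrier Slc25a12 (42.8 ± 5.33 against 51.6 ± 5.24 TPM, -0.27), and the amino acid transporters Slc38a2 (14.8 ± 6.49 against 27.4 ± 19.1 TPM, -0.73) and Slc38a6 (24.4 ± 5.67 against 35.6 ± 11.5 TPM, -0.51). The unadjusted p-values lay between 0.0102 and 0.0183, and the adjusted p was 0.978 for each in limma. The last 3 were also DEGs in PTE- mice (-0.31, -0.74 and -0.47; 11.1% of the lists, all genes 3.76%), and Slc1a5 (-0.87) and Slc38a6 (-0.59) in PTE+ mice (7.41%, all genes 1.97%). The same sham libraries serve all of these. In contralateral CCI against sham 6 of 7 neuronal, 6 of 7 oligodendrocyte and 5 of 6 mural and fibroblast markers tested were below 0. Their medians were -0.24, -0.40 and -0.26 with 0 called, beside -0.07 over all genes. Of the microglial markers 5 of 7 were above 0 (median 0.03). The part of these cells in the 4 calls was not tested. After CCI the Slc38a2 call was lost without sham mouse 9_10 (-0.40), that of Slc38a6 without sham mouse 9_11 (-0.37) and that of Slc25a12 in 4 of 9 fits without 1 mouse and with median centring (-0.17), while that of Slc1a5 was kept in all 9. These 9 fits left out sham and PTE+ mice only, and no PTE- mouse.

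Between PTE+ and PTE- mice 2 of 27 (7.41%, all genes 2.79%) were higher contralaterally, the large neutral amino acid transporter Slc7a5 (57.5 ± 32.9 against 35.1 ± 7.15 TPM, 0.57, unadjusted p = 0.0390 in limma) and asparagine synthetase, Asns (8.18 ± 2.36 against 4.57 ± 1.86 TPM, 0.77, unadjusted p = 0.0195 in limma). Slc7a5 reached 104.1 TPM in 1 PTE+ library against a group median of 47.0, and gave 0.23 without PTE+ mouse 9_17. It also lost its call without PTE+ mouse 8_17, and Asns lost its call without PTE+ mouse 9_17 or 9_18. Asns passed the filter of 5 TPM here only through its PTE+ mean, the group in which it was higher, so its call is a description. The endothelial and neuronal markers of this comparison are given above with Slc38a5, and their part here was not tested. Asns was also higher ipsilaterally than contralaterally in injured mice (0.41, unadjusted p = 0.0390 in limma), the 1 call among the 27 (3.70%, all genes 2.54%). This call was lost without PTE+ mouse 8_10 (0.39). Slc38a2 was lower ipsilaterally in sham mice (-1.09, and -0.55 with no call without sham mouse 9_10), and its difference between hemispheres of the CCI effect was 1.28 (unadjusted p = 0.0141, adjusted p = 0.99998 in limma).

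Along the split by mouse name 7 of the 27 (25.9%) were DEGs ipsilaterally, near the 24.3% of all genes. The enzymes Gpt2 (0.50), Pc (0.45), which is pyruvate carboxylase, and Aldh4a1 (0.50) were higher in the mice whose names begin with 9, with adjusted p-values of 0.0306, 0.0321 and 0.0388 in limma. Slc3a2 (0.28), Slc7a5 (0.45) and Slc38a11 (0.97) were higher too and the neuronal vesicular transporter Slc17a7 was lower (-1.36), with adjusted p-values between 0.0685 and 0.110 in limma. Contralaterally 4 of 27 (14.8%, all genes 19.2%) were higher, Slc38a1 (0.87), Slc38a10 (0.52), Slc7a5 (0.43) and Pc (0.31), with adjusted p-values between 0.0751 and 0.225 in limma.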

How the data were processed

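The labels and the methods of the study describe cortical astrocytes isolated with ACSA-2 MicroBeads after papain dissociation and sequenced as SMART-Seq v4 libraries. The authors trimmed reads with Trim Galore (0.6.4) and quantified them with RSEM (1.2.28) and Bowtie2 (2.4.1) on mm10, and deposited TPM per gene for each hemisphere. The annotation release is not given in the sources used here. The study tested raw counts with DESeq2 (1.36.0), which were not used here. TPM sums to 1000000 in every library and keeps no depth, so no counting interval is given.

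Symbols and positions were taken by Ensembl identifier from GENCODE vM21, and promoters from RefSeq on GRCm38.p6. The 7 genes, the gene lists and the tests were chosen with earlier results of these data known, and the study used Slc1a3 to check its astrocytes. Named beside the 7 are the listed pathway genes that were DEGs in any comparison and the 3 genes most like each of the 7.

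Fits used limma (3.58.1, R 4.3.3) with an intensity trend on log2(TPM + 1), after a filter at a mean of 5 TPM, and were tested on simulated data. Permutation and sign-flip tests and figures were made in Python 3.11.15 with scipy 1.17.1, pandas 2.3.3, numpy 2.4.6 and, for plots, matplotlib 3.10.9. Each library is a separate mouse within a hemisphere. Pairing of hemispheres follows from the mouse named in the labels. Deviations from the group means correlated between the hemispheres of the same mouse with a median r of 0.412 over 10235 genes (0.0418 to 0.686, 16 of 17 mice above 0.1). Alternatives were a pseudocount of 0.1, no filter, quantile normalization, median centring, array weights, 1 fit of all 3 groups, the mouse as a block, the first number of the mouse name as a covariate, and single mice left out. In limma the mice left out were PTE+ and sham mice and the ipsilateral library of PTE- mouse 9_14. No other PTE- mouse was left out there, while the within-mouse differences left out each injured mouse in turn. The comparison along mouse names and the alternatives of the within-mouse differences were chosen after seeing the data.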

Additional observations from a re-analysis of the deposited data

Results flagged for a closer look

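Single libraries far from their group were looked for by Dixon's test at its 95% critical value. Chance passes this value in about 1 in 20 groups. The 132 groups of 4 to 10 libraries were those of the 7 genes and of the listed pathway genes that were DEGs in any comparison. The latter genes were picked by calls that single libraries can move, so that rate need not hold for them. The test marked 13, of which 3 of 42 were in the 7 genes. Ipsilateral sham mouse 9_11 had 858.7 TPM of Slc1a2 against 434 to 490.1 in the other 4 sham mice, and 3308 TPM of Slc1a3 against 1420.2 to 1949.8. Ipsilateral sham mouse 9_10 had 86.2 TPM of Slc38a5 against 9.68 to 20.6.

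The other 10 were in further genes of glutamate and glutamine handling. Among sham mice, Slc3a2 was 976.49 TPM in ipsilateral mouse 9_11 (others at most 739), Slc38a1 24.71 in ipsilateral mouse 9_10 (at most 13.9), Slc38a2 60.63 in contralateral mouse 9_10 (at most 26.5) and Slc17a7 200.32 in contralateral mouse 9_9 (at most 59.5). Contralateral sham mouse 8_15 had 8.82 TPM of Slc1a5 (others at least 12.3), and contralateral sham mouse 8_16 had 31.79 of Aldh4a1 (at least 64.4). Among PTE- mice, Slc17a7 was 197.93 TPM in contralateral mouse 9_13 (others at most 86.5) and Slc38a2 25.16 in contralateral mouse 9_16 (at most 16). Ipsilateral PTE- mouse 9_14, the library with the fewest genes above 0, had 24.47 TPM of Slc38a11 (at most 12.2) and 151.77 of Gpt2 (at most 106).

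The effect of CCI on Slc38a2 differed between hemispheres by 1.2819 on the log2 scale (unadjusted p = 0.0141 in limma for the difference, which was not past an adjusted p of 0.05). One of the libraries behind it is that of contralateral sham mouse 9_10 named above.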

How the results depend on the processing

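Of 1239 alternative values of the 7 genes, 1100 kept their direction and their side of the thresholds, 15 no longer passed the thresholds, 15 newly passed them, and none reversed a called value. The other 109 changed sign with no call in either fit. The number of the 7 called in ipsilateral CCI against sham went from 0 to 2 with array weights (Slc1a3 0.33, Glud1 0.27; all genes from 169 to 843). In ipsilateral PTE+ against sham it went from 0 to 2 with array weights, where all genes went from 163 to 1221. With single mice left out it ran from 0 to 3 there, the 3 without sham mouse 9_11, where 1038 of 10434 genes were DEGs. In ipsilateral PTE+ against PTE- it went from 1 to 0 with a pseudocount of 0.1, no filter, quantile normalization, median centring, array weights and 1 fit of all 3 groups. With single mice left out it was 0 or stayed at 1 in that comparison. In contralateral PTE- against sham it went from 0 to 1 with median centring (Glul 0.33), and in contralateral PTE+ against PTE- it ran from 0 to 1 with single mice left out. Along mouse names it went from 4 to 2 ipsilaterally with median centring and ran from 0 to 2 contralaterally with single mice left out. With the mouse as a block, the difference between hemispheres of PTE+ against PTE- went from 0 to 1 (Slc38a3 0.34, unadjusted p = 0.0468 in limma), and the block changed no other call of the 7 genes. The cause of these changes was not tested. Over all genes, DEG counts moved by more than 1.5 times in at least 1 alternative of every comparison except that along mouse names contralaterally, for example from 60 to between 23 and 441 in ipsilateral PTE+ against PTE-, and, with the block, from 9 to 330 in the difference of the PTE+ effect, from 126 to 732 between sham hemispheres and from 147 to 695 in the difference of the CCI effect. Contralaterally along mouse names the genes at an adjusted p under 0.05 in limma ran from 0 to 749 (without mouse 9_18). The files hold no depth, so counting error could not be given.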
